A study of Mus musculus with 12 samples.

Results

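Nupr1, Chac1, Sesn2, Ddit4, Vldlr, Cebpb, Cebpg and Herpud1 are genes known to be induced by cellular stress. These 8 genes, of 25097 in the tables, were chosen by their measured difference between Alas2-mutant and wild-type (WT) erythroid cells, as stress genes that moved in opposite directions in the mutant cells. The mutant-WT differences of the members are therefore a description and carry no test here. Of the 8, 6 had enough counts to be tested. Chac1 had no count in any library and Vldlr had almost none, so the data do not bear out the description of either as induced in these cells.

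The data are 12 RNA-seq libraries, 3 per group, all from the G1E-ER-GATA-1 line. G1E cells are mouse erythroid precursors that lack endogenous GATA-1, and this derivative carries GATA-1 fused to an estrogen receptor domain, so that beta-estradiol switches on the fusion and starts erythroid maturation. All cells grew in medium with erythropoietin, a source of Kit ligand and puromycin. The groups were untreated WT cells, WT cells with 1 µM beta-estradiol for 48 h, double-mutant cells with the same estradiol treatment, and double-mutant cells with estradiol and 1 mM 5-aminolevulinic acid (5-ALA). The double mutants carry altered cis-elements of Alas2, the erythroid gene for the enzyme that makes 5-ALA, the first committed precursor of heme. The libraries include no untreated mutant cells, and the labels do not state how many mutant lines were used. Whether a value reflects the mutation or the history of a line therefore cannot be told apart. Nothing in the labels says that the libraries of a group came from separate cultures, so their spread may be technical.

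The integrated stress response is a shared pathway in which kinases phosphorylate the translation factor eIF2 alpha. Bulk protein synthesis then slows, while translation of the transcription factor ATF4 increases. ATF4 pairs with C/EBP-family proteins on composite DNA elements and switches on genes for amino acid supply, redox balance and the control of growth. In erythroid cells the kinase HRI, encoded by Eif2ak1, is held inactive by heme and is active when heme is scarce. Endoplasmic reticulum stress, hypoxia and p53 feed into several of the same genes through other factors.

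Promoter windows from RefSeq (GRCm38.p6, the bases just before and after each start) were found for all 8 members, with 2 windows for Vldlr. They were searched on both strands for TGATGNAA, the composite element bound by ATF4 with a C/EBP partner. The windows of Nupr1, Chac1 and Herpud1 and the second window of Vldlr each held 1 match, and all 4 matches had the same letters, read on the opposite strand. The stretches below run 5′ to 3′ along the strand of the gene, with the match in capitals, and are shown because a gene that changed strongly and 2 genes without measurable mRNA share it.
Nupr1, chr7:126625562-126625591, minus strand: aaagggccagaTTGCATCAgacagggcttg
Chac1, chr2:119351038-119351067, plus strand: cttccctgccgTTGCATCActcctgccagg
Vldlr, chr19:27216809-27216838, plus strand: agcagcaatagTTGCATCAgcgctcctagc
Herpud1, chr8:94386306-94386335, plus strand: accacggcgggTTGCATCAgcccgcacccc
The matches began 110, 193, 200 and 112 bases before the RefSeq start. In GENCODE M21 the Nupr1 match lies in an untranslated exon of a coding transcript that starts further upstream. The Vldlr match lies in an exon of a transcript with no coding sequence, and the other 2 lie outside the annotated gene. Of 32544 distinct windows, 3.91% held TGATGNAA and 0.867% held TGATGCAA, the letters matched here. No window of the members held CCAAT and CCACG with 9 bases between them (0.120% of all windows), TGACGTGG (0.682%), TTGCGCAA (0.184%), or AGATAA or TGATAA (18.5%), and so no match overlapped another. A match is a description of letters and not a measured binding site.

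The libraries held 20309085 to 43548387 expected counts, the reads that the RSEM model assigned to genes, and 12115 genes were tested. Within a group, libraries differed by more than sampling noise, with chi-square per degree of freedom between 1.75 and 14.5. Alas2, the targeted gene, had 4280 to 4309 CPM in estradiol-treated WT libraries, 5.2 to 9.48 in mutant libraries and 12.1 to 12.5 in those with 5-ALA. Levels are given as CPM, counts in proportion to the scaled library size, and comparisons between genes use TPM, which also corrects for transcript length. The summed CPM of 9 erythroid markers was 711 to 728 in untreated WT cells, 75924 to 76811 in WT cells with estradiol, 24358 to 25777 in mutant cells and 67819 to 73055 in mutant cells with 5-ALA. In these bulk samples, fewer cells of a type and less RNA per cell cannot be told apart. The summed megakaryocyte markers, 8 genes, were 188 to 194, 1851 to 1874, 425 to 441 and 725 to 742 CPM in the same order, and 6 mast cell markers summed to 139 to 155 CPM in untreated cells and to at most 2.58 elsewhere, with Mcpt8, Fcer1a and Tpsb2 at 0 in every group. Granulocyte and macrophage markers (7 genes, with Ly6g at 0 throughout) summed to at most 1.01 CPM and lymphocyte markers (5 genes) to at most 1.84. Stromal markers (5 genes, with Dcn at 0 throughout) summed to 11.3 to 11.7 CPM in untreated cells and to at most 0.722 elsewhere. Most of that untreated stromal sum was Pdgfrb, with a mean of 11.5 CPM. Col1a1, Col1a2 and Col3a1 had at most 0.0513 CPM in any untreated library. Cpa3, with a mean of 139 CPM, likewise made up most of the mast cell sum in untreated cells. Itgb3, with means of 87.9, 1784, 391 and 687 CPM in the 4 groups, made up most of the megakaryocyte sum in every estradiol-treated group. With estradiol in WT cells, 4 of the 6 tested megakaryocyte markers rose, while Pf4 and Itga2b fell. Of all tested genes, 43.3% were called higher there and 46.4% lower, so that sum does not stand for the whole list. The part of these shifts in the differences below was not tested.

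A gene was called at an adjusted p below 0.05 in edgeR's quasi-likelihood test, with Benjamini-Hochberg adjustment over all 12115 genes. All 6 tested members had at least 4.52 CPM in every library, so none passed the filter on low counts through 1 group alone. Levels of these 6 genes in each library are shown in the plot of CPM by group.

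**Figure D1:**
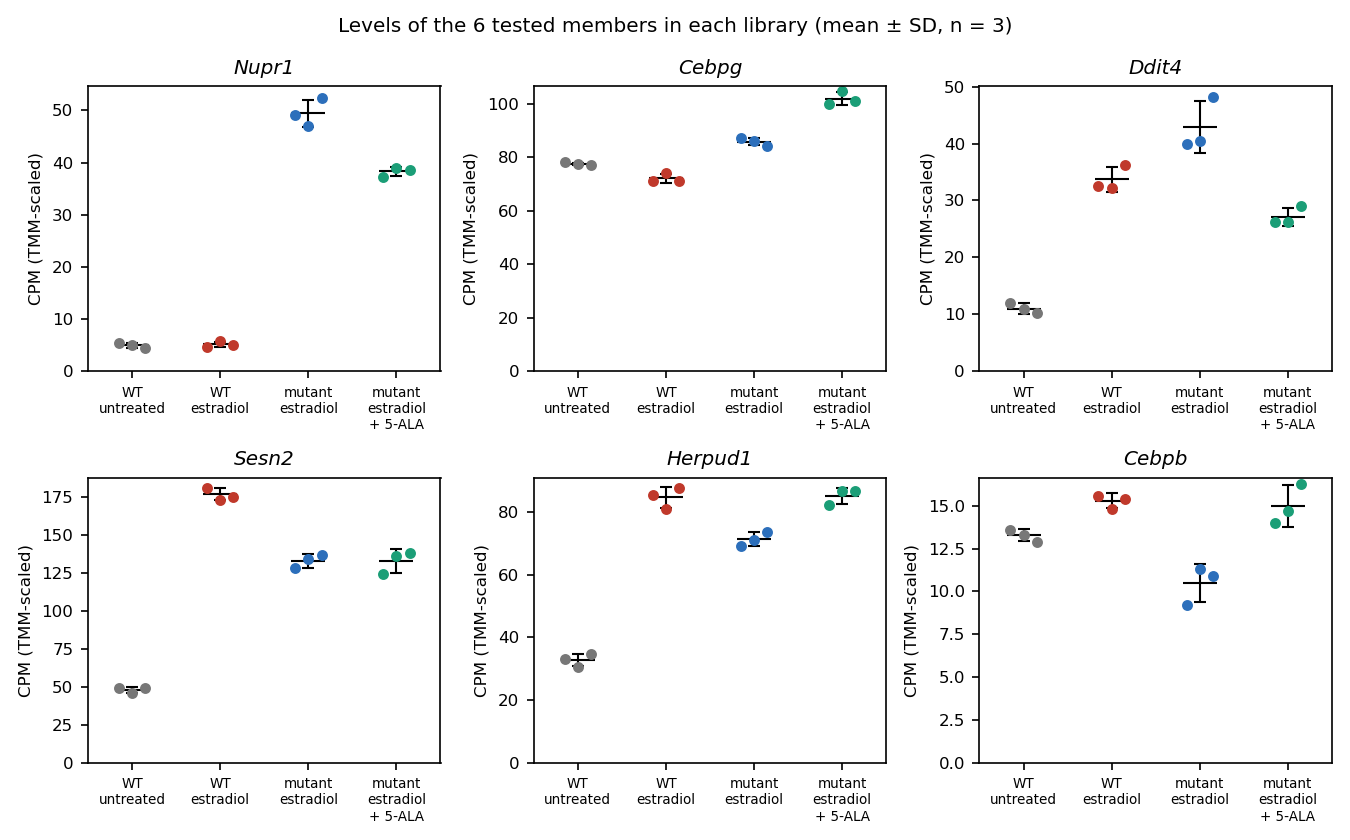
Scaled counts (CPM, linear axes from 0) of the 6 tested members, with 1 point per library, 4 groups of 3 libraries, and a bar and whiskers for the mean ± SD. Nupr1 lies between 4.52 and 5.72 CPM in the WT libraries and between 37.3 and 52.3 CPM in the mutant libraries, while Cebpb is lowest in mutant cells without 5-ALA.

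Nupr1 (ENSMUSG00000030717, mm10 chromosome 7, 126623249 to 126630861, minus strand, protein-coding) encodes a small chromatin-associated protein induced by many stresses. It had 5.37, 4.98 and 4.52 CPM in untreated WT cells and 4.63, 5.72 and 5.09 CPM in WT cells with estradiol. In mutant cells it had 49.1, 47.1 and 52.3 CPM with estradiol alone, and 37.3, 38.9 and 38.5 CPM with 5-ALA added. The WT groups overlapped, every mutant library was far above both, and the 5-ALA libraries lay wholly below the mutant libraries without it. The difference between mutant and WT cells, on which the gene was chosen, was 9.61-fold without 5-ALA (log2 3.26, SE 0.0693) and 7.43-fold with it (log2 2.89). Estradiol in WT cells gave a log2 fold change of 0.05 (SE 0.0913, edgeR adjusted p = 0.591). With 5-ALA Nupr1 fell by 0.37 on the log2 scale (SE 0.0526, edgeR adjusted p = 1.17e-06), a 1.29-fold decrease that left it well above the WT level.

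Its related gene Nupr1l, named after its values were seen, had means between 0.409 and 1.22 CPM in the 4 groups. Nupr1l rose with estradiol in WT cells (log2 1.54, edgeR adjusted p = 4.85e-06) and stood lower in the mutant than in estradiol-treated WT cells (log2 -0.75, edgeR adjusted p = 0.00847). The tested genes nearest to Nupr1 were Apobr, 34137 bases away on one side, and Sgf29, 18448 bases away on the other. Their mutant-WT log2 differences were 0.09 and 0.13, beside 3.26 for Nupr1. These neighbours too were looked up after the values were seen.

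Cebpg (ENSMUSG00000056216, chromosome 7, 35046422 to 35056573, minus strand, protein-coding) encodes a short C/EBP protein that lacks a transactivation domain and serves as a partner of ATF4. Its levels were 78.2, 77.4 and 77.3 CPM in untreated WT cells, 71.3, 74.2 and 71.1 in WT cells with estradiol, 87.1, 86.3 and 84.3 in mutant cells, and 100, 105 and 101 in mutant cells with 5-ALA. No 2 groups overlapped, and the order rose from estradiol-treated WT cells to mutant cells with 5-ALA. Cebpg rose with 5-ALA by a log2 fold change of 0.25 (SE 0.0286, edgeR adjusted p = 3.3e-08), so that 5-ALA moved it further from WT. The mutant-WT difference was 0.25 on the log2 scale without 5-ALA and 0.50 with it. With estradiol in WT cells it had a log2 fold change of -0.10 (edgeR adjusted p = 0.00208). That call was lost in DESeq2 (adjusted p = 0.0961), in an edgeR fit of only the 2 groups (adjusted p = 0.104) and in the edgeR fit without the first estradiol-treated WT library (adjusted p = 0.0602), and the value was 0.03 in edgeR under a stricter filter (adjusted p = 0.347).

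Cebpb (ENSMUSG00000056501, chromosome 2, 167688915 to 167690418, plus strand, protein-coding) encodes a C/EBP activator of inflammatory, adipogenic and stress genes. It had 13.6, 13.3 and 12.9 CPM in untreated WT cells, 15.6, 14.8 and 15.4 in WT cells with estradiol, 9.19, 11.3 and 10.9 in mutant cells, and 14, 14.7 and 16.3 in mutant cells with 5-ALA. The mutant libraries without 5-ALA lay below all others, and those with 5-ALA overlapped the estradiol-treated WT libraries. The mutant-WT difference was -0.52 on the log2 scale (SE 0.0743), and -0.03 with 5-ALA. Cebpb rose with 5-ALA by a log2 fold change of 0.50 (SE 0.0739, edgeR adjusted p = 2.31e-06). With estradiol in WT cells the log2 fold change was 0.20 (SE 0.0719, edgeR adjusted p = 0.00994), and on the TPM scale it was -0.08 (limma-trend adjusted p = 0.295).

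The single exon of Cebpb shares 312 bases with exons of Tmem189 on the opposite strand, and whether strand was used in counting is not given in the sources used here. Tmem189, named for this overlap, had 28.2 ± 1.5, 268 ± 2.37, 119 ± 2.76 and 155 ± 6.03 CPM (mean ± SD, n = 3) in untreated WT, estradiol-treated WT, mutant and 5-ALA-treated mutant cells. Its log2 fold changes were 3.24 with estradiol, -1.17 in mutant against WT cells and 0.39 with 5-ALA, each in the direction of Cebpb. The part of shared reads in the Cebpb values was not tested. Of the other C/EBP genes in the tables, Cebpa had 0 counts in all 12 libraries and Cebpe had 4 in all, 3 of them in untreated WT cells. Ddit3, listed with this family as well, was measured at means of 63.3 to 337 CPM and is described with the integrated stress response below.

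Sesn2 (ENSMUSG00000028893, chromosome 4, 132492032 to 132510501, minus strand, protein-coding) encodes sestrin 2, a leucine-binding protein that restrains the growth kinase complex mTORC1. It had 49, 46.0 and 49.1 CPM in untreated WT cells and 181, 173 and 175 in WT cells with estradiol. Mutant cells had 128, 134 and 137 CPM, and with 5-ALA 124, 136 and 138. The mutant groups overlapped fully and lay between the WT groups. Sesn2 rose with estradiol 3.66-fold (log2 1.87, SE 0.0389, edgeR adjusted p = 5.88e-22), and the mutant-WT difference was -0.41 on the log2 scale both without and with 5-ALA. With 5-ALA its log2 fold change was -0.0043 (SE 0.0358, edgeR adjusted p = 0.942). On the TPM scale that value was -0.20 (limma-trend adjusted p = 0.000576), where the median of all genes stood at -0.15.

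Of its relatives, Sesn1 followed another course. It had 43.8 ± 0.292, 68.3 ± 0.699, 86.2 ± 1.24 and 76.1 ± 2.14 CPM (mean ± SD, n = 3) in untreated WT, estradiol-treated WT, mutant and 5-ALA-treated mutant cells. Sesn1 thus rose with estradiol (log2 0.64, edgeR adjusted p = 1.6e-17), was higher in mutant than in WT cells (log2 0.34, edgeR adjusted p = 5.31e-11) and fell with 5-ALA (log2 -0.18, edgeR adjusted p = 1.29e-05). Sesn3 had 0 counts in every library.

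Ddit4 (ENSMUSG00000020108, chromosome 10, 59949669 to 59951834, minus strand, protein-coding) encodes REDD1, which also restrains mTORC1, through the TSC complex, and responds to hypoxia, glucocorticoids and energy stress. It had 11.9, 10.9 and 10.2 CPM in untreated WT cells, 32.6, 32.2 and 36.3 in WT cells with estradiol, 39.9, 40.5 and 48.2 in mutant cells, and 26.2, 26.3 and 29.0 in mutant cells with 5-ALA. All 4 groups were separate, and 5-ALA took the mutant level below that of estradiol-treated WT cells. Ddit4 rose 3.05-fold with estradiol (log2 1.61, SE 0.0859, edgeR adjusted p = 3.14e-11). With 5-ALA it fell by 0.66 on the log2 scale (SE 0.0753, edgeR adjusted p = 3.36e-06). Its mutant-WT difference was 0.35 without 5-ALA and -0.31 with it. The related gene Ddit4l had at most 0.0608 CPM in any library.

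Herpud1 (ENSMUSG00000031770, chromosome 8, 94386438 to 94395377, plus strand, protein-coding) encodes a ubiquitin-like membrane protein of endoplasmic reticulum-associated degradation, which removes misfolded proteins. It had 33.2, 30.6 and 34.6 CPM in untreated WT cells, 85.3, 80.9 and 87.7 in WT cells with estradiol, 69.2, 71.1 and 73.6 in mutant cells, and 82.3, 86.6 and 86.8 in mutant cells with 5-ALA. The 5-ALA libraries overlapped the estradiol-treated WT libraries, and the mutant libraries without 5-ALA lay below both. Herpud1 rose 2.56-fold with estradiol (log2 1.36, SE 0.0406, edgeR adjusted p = 2.91e-23) and rose with 5-ALA (log2 0.25, SE 0.0370, edgeR adjusted p = 1.81e-06). On the TPM scale the 5-ALA value was 0.07 (limma-trend adjusted p = 0.302). The mutant-WT difference was -0.24 on the log2 scale, and 0.01 with 5-ALA.

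The paralog Herpud2 changed more with estradiol, from 15.0 ± 0.206 to 127 ± 4.04 CPM (mean ± SD, n = 3, log2 3.08, edgeR adjusted p = 2.92e-33). Mutant cells had 82.2 ± 1.90 CPM of Herpud2 and mutant cells with 5-ALA 99.1 ± 2.75, a rise with a log2 fold change of 0.27 (edgeR adjusted p = 2.15e-08).

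Chac1 (ENSMUSG00000027313, chromosome 2, 119351229 to 119354381, plus strand, protein-coding) encodes an enzyme that cleaves glutathione and is a known target of ATF4. It was at 0 in all 12 libraries, among 370059911 expected counts, as were 6328 genes of the tables (25.2%). A count of 0 allows up to 3 counts per library, or 0.0681 to 0.146 CPM, by counting error alone. Chac1 mRNA was thus not detectable in any group at this depth, and no direction can be given. Its paralog Chac2, the constitutive form of the enzyme, was measured at means of 4.51 to 6.85 CPM. Chac2 was lower with estradiol (log2 -0.50, edgeR adjusted p = 6.19e-05) and higher with 5-ALA (log2 0.27, edgeR adjusted p = 0.0439). In TPM, Chac2 had 6.92 ± 0.199 in mutant cells and 7.52 ± 0.654 in mutant cells with 5-ALA (mean ± SD, n = 3).

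Vldlr (ENSMUSG00000024924, chromosome 19, 27216484 to 27254231, plus strand, protein-coding) encodes a lipoprotein receptor that also binds reelin. It had 12.4 expected counts over all 12 libraries, spread over 7 of them, with at most 0.108 CPM in any library and means of 0.0171 to 0.0599 CPM in the groups. No library exceeded 3 counts, too few for a direction to be read, and no fold is given. Lrp8, which encodes the other reelin receptor, was detected and rose with 5-ALA (log2 1.59, edgeR adjusted p = 3.03e-14), from 2.13 ± 0.188 to 6.47 ± 0.705 CPM (mean ± SD, n = 3). In WT cells it fell with estradiol from 70.9 ± 0.606 to 8.8 ± 0.213 CPM (log2 -3.01). Against these estradiol-treated WT cells, Lrp8 was lower in mutant cells without 5-ALA (log2 -2.04) and with it (log2 -0.45).

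**Figure D2:**
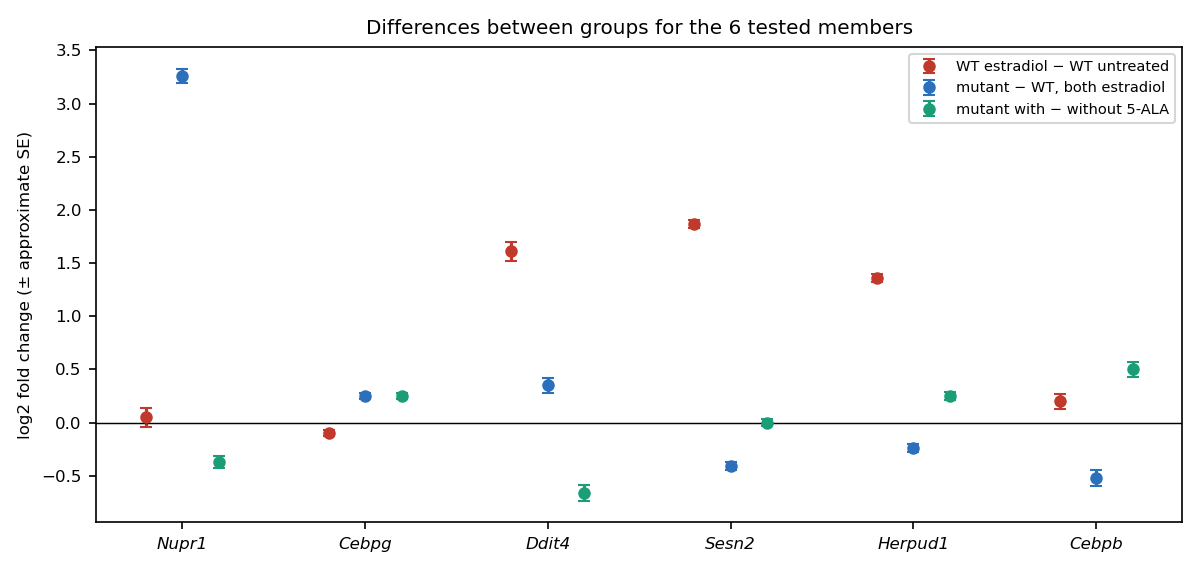
Log2 fold changes of the 6 tested members (points, with bars of 1 approximate SE) for estradiol in WT cells, for mutant against estradiol-treated WT cells, and for 5-ALA in mutant cells. Nupr1 stands at 3.26 for mutant against WT cells, the other 5 between -0.52 and 0.35, and the estradiol values of Sesn2, Ddit4 and Herpud1 exceed 1.

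Across the comparisons the members did not move as a block. With estradiol in WT cells, Sesn2, Ddit4, Herpud1 and Cebpb rose, 4 of 6 tested, where 43.3% of all tested genes were called higher. Only Cebpg was called lower, where 46.4% of all genes were. Sesn2, Ddit4 and Herpud1 were higher by 2-fold or more, as were 26.5% of all genes. Calls were common in this comparison, so the members' counts are read only as a description.

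With 5-ALA in mutant cells, Cebpb, Cebpg and Herpud1 rose, 3 of 6, where 21.6% of all tested genes were called higher. Nupr1 and Ddit4 fell, 2 of 6, where 21.0% of all genes were called lower. None of the 6 changed by 2-fold or more, as 1.77% of all genes did upward and 0.537% downward. This comparison uses the same mutant libraries as the one that chose the members, and the estradiol comparison shares the estradiol-treated WT libraries with it, so that an error in those libraries enters both.

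In mutant against WT cells with estradiol, Nupr1, Ddit4 and Cebpg were higher and Sesn2, Herpud1 and Cebpb lower, 3 each of 6, where 35.1% and 33.6% of all genes were called in these directions. These counts follow from how the members were chosen. In mutant cells with 5-ALA against the same WT cells, where 33.3% of all genes were called higher and 29.0% lower, the log2 differences were 2.89 for Nupr1, 0.50 for Cebpg, 0.01 for Herpud1, -0.03 for Cebpb, -0.31 for Ddit4 and -0.41 for Sesn2. Herpud1 and Cebpb overlapped the WT libraries there, while Nupr1, Cebpg, Ddit4 and Sesn2 did not.

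The scale mattered for small values. On log2(TPM + 1) the median of all genes shifted to -0.23 with estradiol, -0.15 with 5-ALA and 0.125 for mutant against WT cells. With 5-ALA, 806 genes were then called higher and 5719 lower, against 2620 and 2543 in CPM. For mutant against WT cells these counts were 5618 and 2326, against 4258 and 4076. The mutant-WT values on this scale were -0.21 for Sesn2, -0.09 for Herpud1, -0.33 for Cebpb and 0.53 for Ddit4, each with the sign it had in CPM. Relative to that median, the 5-ALA values on the TPM scale were -0.41 for Nupr1, -0.68 for Ddit4, 0.44 for Cebpb, 0.31 for Cebpg, 0.22 for Herpud1 and -0.05 for Sesn2. Counts for the gene lists below are on the CPM scale and were not recomputed in TPM.

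Per transcript length, the order of the members changed between groups. In untreated WT cells Herpud1 was the most abundant of the 6, at 42.6 ± 2.27 TPM (mean ± SD, n = 3), followed by Cebpg at 35.3 ± 0.548 and Sesn2 at 25.7 ± 0.544. Cebpb followed at 16.8 ± 0.654, then Nupr1 at 12.6 ± 1.40 and Ddit4 at 12.4 ± 1.1, whose libraries overlapped. In WT cells with estradiol Herpud1 stood at 94.2 ± 6.78 TPM and Sesn2 at 77.5 ± 1.39, with Ddit4 (31.0 ± 2.08) and Cebpg (31.0 ± 0.593) overlapping, and Nupr1 lowest at 11.8 ± 1.63. In mutant cells Nupr1 was the most abundant, at 126 ± 6.24 TPM, above Herpud1 at 88.5 ± 2.59, and Cebpb was the least, at 12.4 ± 1.28. With 5-ALA Herpud1 led again at 92.7 ± 2.11 TPM, with Nupr1 at 85.1 ± 2.20.

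**Figure D3:**
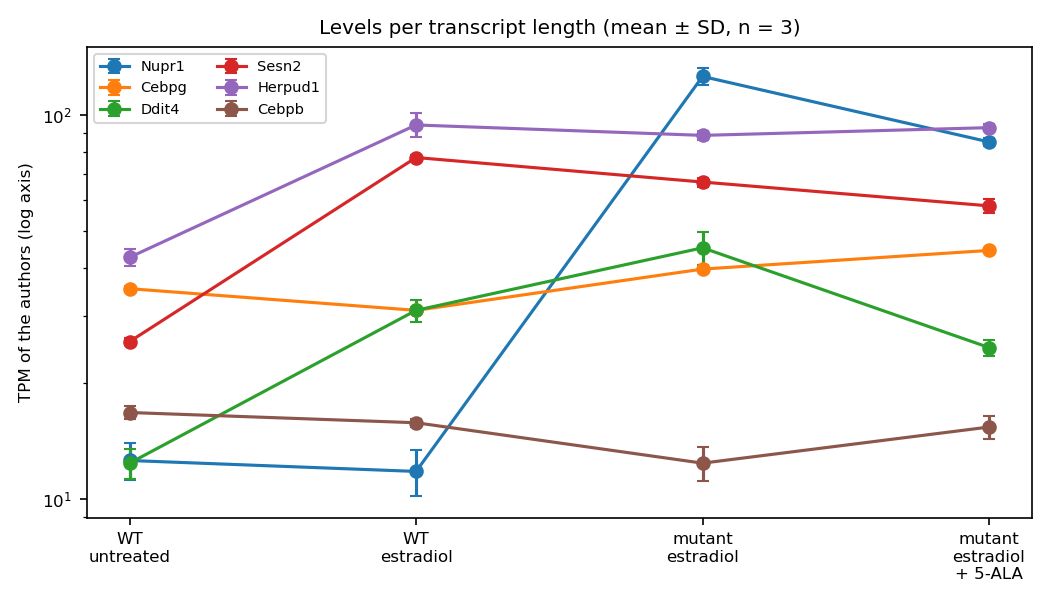
The authors' TPM of the 6 tested members on a log axis, by group (points are means and bars the SD of 3 libraries; lines join a gene's points and are no time course). Nupr1 goes from 11.8 TPM in estradiol-treated WT cells, the lowest of the 6, to 126 TPM in mutant cells, the highest.

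The authors' tables also give the abundance-weighted transcript length of each gene, a readout that did not choose the members and that shifts when the mix of transcripts shifts. Chac1, Sesn2, Ddit4 and Cebpb have 1 transcript each in the tables and so a fixed length. Cebpg, with 2 transcripts, had 4180, 4100 and 3989 bases in untreated WT cells, 3557, 3650 and 3439 in WT cells with estradiol, 3849, 3830 and 3655 in mutant cells, and 3479, 3528 and 3440 in mutant cells with 5-ALA. Its untreated libraries lay above all others, and the mutant libraries lay above those with 5-ALA. Nupr1, with 6 transcripts, had 751 to 786 bases in untreated WT cells and 689 to 735 in the other 9 libraries, where the groups overlapped. Herpud1, with 5 transcripts, ranged from 1322 to 1502 bases, with overlap among all groups. These lengths are model estimates and were not tested.

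**Figure D4:**
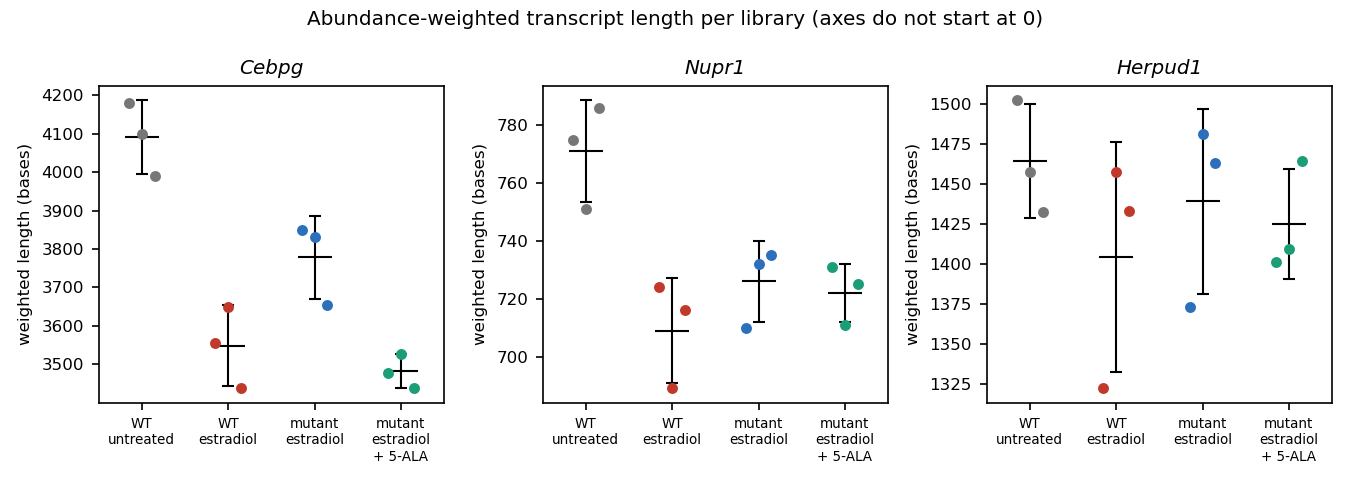
Abundance-weighted transcript length in bases (axes do not start at 0) of Cebpg, Nupr1 and Herpud1, with 1 point per library and the mean ± SD of 3 libraries. The untreated WT libraries of Cebpg, at 3989 bases or more, and of Nupr1, at 751 bases or more, lie above those of the other groups.

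Genes with the most similar course were sought by Pearson's r of log2 CPM over the 12 libraries, among 12115 genes. Since all members share the same libraries and 4 group levels, high values are common and carry no test. Nearest to Nupr1 were Ech1 (r = 0.996), a fatty acid oxidation enzyme, and Pfkm (r = 0.995), a phosphofructokinase. Their mutant-WT log2 differences were smaller, 0.63 and 1.49. Nearest to Sesn2 were Dlgap4 (r = 0.999) and Myl6 (r = 0.998), to Herpud1 Zdhhc14 (r = 0.998) and Tpm1 (r = 0.997), and to Ddit4 Yipf5 (r = 0.994) and Srsf4 (r = 0.991). Nearest to Cebpg were Gpc4 (r = 0.988) and Arhgef40 (r = 0.977), and to Cebpb Cd200r2 (r = 0.940) and Vcp (r = 0.936), a segregase that also acts in endoplasmic reticulum-associated degradation.

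Kinases and regulators of the integrated stress response were followed as a list of 12 genes, 11 of them tested. In mutant against WT cells 6 were called higher and 4 lower, where 35.1% and 33.6% of all genes were, with a median log2 difference of 0.27 beside -0.011 for all genes. With 5-ALA 6 rose and only Eif2ak2 fell, where 21.6% and 21.0% of all genes were called, with a median of 0.06 beside 0.006. Atf4 had 101 ± 1.71, 105 ± 0.156, 264 ± 7.40 and 291 ± 13.7 CPM (mean ± SD, n = 3) in untreated WT, estradiol-treated WT, mutant and 5-ALA-treated mutant cells. Atf4 stood higher in mutant than in WT cells (log2 1.33, edgeR adjusted p = 4.13e-25) and was not called with estradiol in WT cells (log2 0.06, edgeR adjusted p = 0.0795), but in CPM it rose with 5-ALA (log2 0.14, edgeR adjusted p = 8.43e-05) where Nupr1 fell. In TPM, Atf4 had 271 ± 5.44 in mutant cells and 260 ± 8.57 in mutant cells with 5-ALA (mean ± SD, n = 3). The direction of this small change thus depends on the scale, and in TPM the median of all genes fell as well. Trib3, a pseudokinase that restrains ATF4, also rose with 5-ALA (log2 0.40, edgeR adjusted p = 6.77e-09), as did Atf5 (log2 0.30, edgeR adjusted p = 0.00781). In TPM, Atf5 had 242 ± 10.3 without and 259 ± 20.5 with 5-ALA, a step within its spread. Ddit3, which encodes CHOP and was named after its values were seen, had 337 ± 8.80 CPM in mutant and 246 ± 5.64 CPM in estradiol-treated WT cells. With 5-ALA its log2 fold change was -0.04 (edgeR adjusted p = 0.239).

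Other ATF4-responsive genes also moved both ways. Of 21 tested, 6 rose and 14 fell with estradiol, where 43.3% and 46.4% of all genes did, for a median log2 fold change of -1.52 beside -0.032 for all genes. In mutant against WT cells 14 were higher and 4 lower (median 0.46), where the shares of all genes were 35.1% and 33.6% (median -0.011). With 5-ALA 12 rose and 4 fell (median 0.14), where the shares were 21.6% and 21.0% (median 0.006). The 4 that fell with 5-ALA, as Nupr1 and Ddit4 did, were Asns, Psat1, Shmt2 and Pck2, named after their values were seen. The cystine transporter gene Slc7a11 had the largest 5-ALA change of the list (log2 2.05, edgeR adjusted p = 1.9e-23), followed by the translation repressor gene Eif4ebp1 (log2 0.61) and the arginine transporter gene Slc7a1 (log2 0.51).

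Herpud1's surroundings were covered by 2 lists. Of 16 genes of endoplasmic reticulum-associated degradation, 14 rose with estradiol and only Edem1 fell (median log2 0.68), beside 43.3% and 46.4% of all genes (median -0.032). In mutant against WT cells 5 were higher and 8 lower (median -0.09), beside 35.1% and 33.6% of all genes (median -0.011). With 5-ALA 8 rose and 4 fell (median 0.07), beside 21.6% and 21.0% of all genes (median 0.006). Nploc4 and Derl1, both of the retrotranslocation machinery, each had a log2 fold change of 0.38 with 5-ALA. Of 17 chaperones and stress sensors of the endoplasmic reticulum, 7 rose and 10 fell with estradiol (median -0.74), and 5 rose and 5 fell with 5-ALA (median -0.05), to be read beside the same shares and medians of all genes. Among these were Xbp1 (log2 0.22), Hsp90b1 (-0.20) and Manf (-0.19).

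For Sesn2 and Ddit4, 18 genes of the amino acid and TSC branches of mTORC1 control were tested. With estradiol 6 rose and 11 fell (median log2 -0.39), where 43.3% and 46.4% of all genes did (median -0.032). In mutant against WT cells 6 were higher and 7 lower (median -0.01), near the 35.1% and 33.6% of all genes (median -0.011). With 5-ALA 4 rose and 5 fell (median 0.03), near the 21.6% and 21.0% of all genes (median 0.006). Mios and Nprl3, subunits of the GATOR complexes, rose with 5-ALA in CPM (log2 0.31 and 0.26). In TPM, Mios had 6.2 ± 0.447 without and 6.61 ± 0.384 with 5-ALA (mean ± SD, n = 3). Nprl3 had 57 ± 2.35 and 60.4 ± 6.12 TPM, a step within its spread. Of 11 hypoxia-responsive genes, 3 were higher and 7 lower in mutant against WT cells (median -0.34), and 4 rose and 5 fell with 5-ALA (median -0.13), beside those same shares and medians of all genes. With estradiol in WT cells 4 rose and 6 fell (median -0.75), where 43.3% and 46.4% of all genes did. Egln1, an oxygen-sensing prolyl hydroxylase, fell with estradiol in WT cells (log2 -0.75, edgeR adjusted p = 1.35e-11), where Ddit4 rose. In mutant against WT cells Egln1 was higher, and with 5-ALA it fell (log2 -1.08, edgeR adjusted p = 4.04e-13), the directions of Ddit4 in both. Ldha and Pdk1 fell with 5-ALA as well (log2 -0.65 and -0.32), although both were already lower in mutant than in WT cells (log2 -0.48 and -0.21), unlike Ddit4.

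Glutathione genes, the setting of Chac1, had 7 tested members. In mutant against WT cells 1 was higher and 4 lower (median log2 -0.77), where 35.1% and 33.6% of all genes were (median -0.011). With 5-ALA 5 rose and only Ggct fell (median 0.49), where 21.6% and 21.0% of all genes were called (median 0.006). Gss and Gclc, which make glutathione, rose with 5-ALA by log2 fold changes of 1.1 and 0.77 (edgeR adjusted p = 2.3e-22 and 1.4e-18), and Gclm by 0.53.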

How the data were processed

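Per the submitters' processing notes, CASAVA 1.8.2, RSEM 1.2.20, Bowtie 1.1.1 and mm10 were used. The sources used here do not give the annotation release. Strand use is likewise not given. Per the file headers, the authors deposited RSEM expected counts, TPM, FPKM and transcript lengths for each of 25097 genes. FPKM was not used here. Symbols came from GENCODE M21, which matched 24746 identifiers.

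Expected counts were rounded, filtered with filterByExpr by group, normalised by TMM and modelled in edgeR 4.0.16 (R 4.3.3) as 4 group means over 12 libraries, with the robust quasi-likelihood F test and Benjamini-Hochberg adjustment over 12115 genes. Each SE is approximate, the size of the log2 fold change divided by the root of F. The common biological coefficient of variation was 0.0334. Limma 3.58.1 on log2(TPM + 1) or log2(TPM + 0.1) and DESeq2 1.42.0 served as alternatives. The fit was also run on simulated counts in which few of the genes changed, in a single group. In these data most genes were called with estradiol, so that run does not test the scaling under such wide change.

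The members and lists were chosen with earlier results of these data known. Named genes were the members, their paralogs, Alas2, for each member the 2 genes with the highest correlation, and from each list up to 3 genes called with 5-ALA that had the largest change and at least 5 CPM. Exceptions are stated. A gene that this rule names is not reported here. Cebpd, Ufd1l, Vimp, Gatsl2 and Gatsl3 had no symbol match, and Ufd1l and Vimp are older symbols of the listed Ufd1 and Selenos. Single genes named as the exceptions of a list (Eif2ak2, Edem1, Ggct, Pf4, Itga2b) were picked after their values were seen. Limits from a count of 0 cover counting error only.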

Additional observations from a re-analysis of the deposited data

How the results depend on the processing

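Values of the 6 tested members were recomputed 336 times, over 4 comparisons and the alternatives. In the 2 tested comparisons, 78 of 84 estradiol values and 80 of 84 5-ALA values kept their side of the threshold. Called values that changed sign were those of Cebpg with estradiol, at 0.03 under a filter of at least 5 CPM in 3 libraries, and of Cebpb with estradiol, at -0.08 on log2(TPM + 1) and -0.08 on log2(TPM + 0.1). Values that were not called also changed sign around 0. Nupr1 with estradiol, at 0.05, was -0.10 on both TPM scales, -0.03 without the third untreated WT library and -0.02 without the second estradiol-treated WT library. Sesn2 with 5-ALA, at -0.0043, was 0.0008 to 0.04 in 3 of the fits that left out 1 library. Against WT cells, the values of 5-ALA-treated mutant cells for Herpud1 (0.01) and Cebpb (-0.03) changed sign as well, to as far as -0.02 and 0.02. Cebpg with estradiol also lost its call in 3 other settings, at -0.05 to -0.07. On both TPM scales Herpud1 lost its 5-ALA call (0.07), and Sesn2 gained one (-0.20 and -0.21). The TPM scales also moved the mutant-WT values, to -0.09 for Herpud1 and -0.21 for Sesn2, with no change of sign for any member. The cause was not tested. The number of members called stayed within 1.5 times in every alternative, as did the number of genes called.

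No pairing of the libraries by replicate number was seen, although weak correlations of deviations cannot exclude one. Same-numbered libraries had correlations of their deviations from -0.104 to 0.0669, and a library's best match had its own number in 9 of 36 cases. With the number as a replicate block, 5032 genes were called with 5-ALA, against 5163, and the calls of the members did not change in either tested comparison. Depth limits Chac1 and Vldlr, for which no direction can be read.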
